A study of Caenorhabditis elegans with 4 samples.

Results

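The abundant piRNAs carried by the Piwi Argonaute PRG-1 of the nematode Caenorhabditis elegans include 81 that almost disappeared from the precipitate when PRG-1 lacked its PAZ domain. These 81 were chosen from the 15913 piRNAs of the deposited table by their own reads. Each had at least 100 sense reads in each wild type library, and a mutant level under 2% of the wild type level. A level is the number of reads per 1000000 genome-mapped reads (RPM), and for the choice the reads of both libraries of a genotype were pooled. Of the 15913 piRNAs, 6251 had a sense read in any library and 217 reached the read minimum, so the 81 are 37.3% of the abundant piRNAs and 136 abundant piRNAs kept 2% or more. Because these levels chose the 81, their loss is described here and not tested.

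Both genotypes were adult hermaphrodites cultured at 25 °C, either wild type or prg-1(∆PAZ-domain), and in both the PRG-1 protein carried a V5 tag. Small RNAs were taken from V5 precipitates of whole-worm lysate, with 2 libraries per genotype and 6461936 to 14430880 genome-mapped reads per library. The labels do not say that replicates came from separate cultures, so the spread between them may be technical. The amount of PRG-1 in the precipitates was not analysed here, so less piRNA per protein and less protein recovered cannot be told apart, and neither can fewer germ cells and less piRNA per cell.

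In worms, piRNAs are made from many short, separately transcribed genes and work in the germline. PRG-1 holds the 5′ end of a piRNA in its MID domain and the 3′ end, which the enzyme HENN-1 methylates, in its PAZ domain. The loaded protein scans germline transcripts by base pairing, and a match leads RNA-dependent RNA polymerases to make secondary small RNAs that silence the target. The deposited table names each piRNA by its piRNAdb number alone. Sequences, gene positions and targets of the 81 were therefore not used here.

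The 81 piRNAs made up a large part of the wild type pool and a small part of the mutant pool, which the rule that chose them favours. Together they held 40349 and 44750 reads in wild type replicates 1 and 2, and 803 and 346 reads in mutant replicates 1 and 2. Their summed level was 6244 and 5317 RPM in the wild type libraries against 103 and 24.0 RPM in the mutant libraries, or 5781 ± 656 and 63.3 ± 55.7 RPM (mean ± SD, n = 2 each). Pooled by genotype, 0.903% of the wild type level was kept, with a 95% counting interval of 0.851% to 0.957%. Counting intervals are exact (Clopper-Pearson) on pooled reads. They cover counting error only, because the reads of both libraries of a genotype are pooled. Any PCR copies counted as separate reads make them too narrow. The spread between the mutant libraries was far wider than that interval, with 0.419% kept without mutant replicate 1 and 1.80% without mutant replicate 2.

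As a share of all sense piRNA reads, the 81 took 28.3% and 31.9% in wild type replicates 1 and 2. They are 0.509% of the piRNAs in the table, many of which had no sense read, and 37.3% of the 217 abundant ones. They took 3.95% and 2.01% in mutant replicates 1 and 2. The other 136 abundant piRNAs took 29.5% of the pool in each wild type library and 37.7% and 67.6% in the mutant libraries. The 67.6% in mutant replicate 2 rested on a single piRNA, cel-piR-8767, without which the other abundant piRNAs made up 16.6% of that library's piRNA reads. Of the whole fall in piRNA level between the pooled genotypes, 17316 RPM, the 81 accounted for 5668 RPM or 32.7%. The rule selects high wild type and low mutant levels, which favours these shares of the 81 and their part of the fall. All piRNAs but the 81 kept 12.3% of their pooled level, and 9.26% with cel-piR-8767 also left out.

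**Figure D1:**
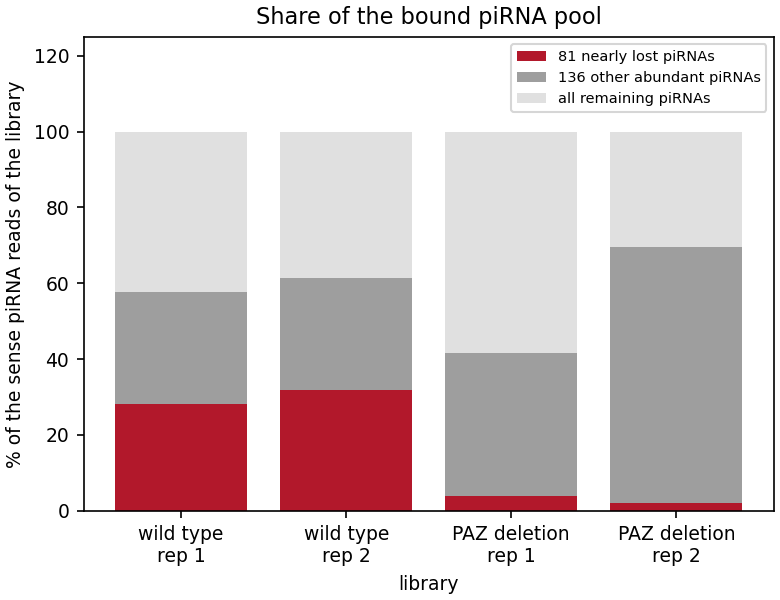
Share of the sense piRNA reads of each library, in percent, taken by the 81 nearly lost piRNAs (red), the 136 other abundant piRNAs (grey) and all remaining piRNAs (light grey). The red part is 28.3% and 31.9% in the wild type libraries and 3.95% and 2.01% in the mutant libraries.

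By pooled wild type level, the 81 filled 7 of the first 10 places and 15 of the first 20. They filled 31 of the first 50 and 52 of the first 100, and are 37.3% of the 217 abundant piRNAs. The rule divides by this same wild type level, which favours members at high ranks. Nothing about abundance is therefore read from these ranks. Within the 81, wild type levels ran from 14.8 to 462 RPM with a median of 46.2, and the other 136 had a median of 29.9 RPM. The 6 most abundant of the 81 held 31.0% of their wild type reads and the 20 most abundant held 58.3%.

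The highest wild type level among the 81 belonged to cel-piR-10604, with 528 and 412 RPM in wild type replicates 1 and 2 and 4.09 and 0.346 RPM in mutant replicates 1 and 2. It was outranked in the whole table by cel-piR-8767 alone, and it kept 0.360% of its wild type level (counting interval 0.253% to 0.496%). The next, cel-piR-8559, kept more of its level, with 333 and 392 RPM in the wild type libraries against 10.1 and 2.70 RPM in the mutant ones. Its 79 and 39 mutant reads were the most of any of the 81, and 1.45% of its level was kept (counting interval 1.19% to 1.74%). The counting intervals of these neighbours in abundance did not overlap, but they leave out the spread between libraries.

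The third, cel-piR-2195, had nearly the same wild type level as cel-piR-8559, at 340 and 363 RPM, but 2.56 and 0.277 RPM in the mutant. Its pooled wild type level was 327-fold above the mutant level (counting interval 220 to 511), against 69.1-fold for cel-piR-8559 (counting interval 57.6 to 83.7). In each mutant library cel-piR-8559 was thus above cel-piR-2195, and in the wild type libraries their order changed between replicates. The piRNA cel-piR-10993 had 259 and 245 RPM in wild type and 2.56 and 0.624 RPM in the mutant. Levels of cel-piR-3719 were 134 and 197 RPM in wild type and 2.56 and 0.554 RPM in the mutant. For cel-piR-5915 they were 140 and 191 RPM in wild type and 5.50 and 0.832 RPM in the mutant. For each of these 6 the lower wild type library was far above the higher mutant library, a gap that the choice of members favours, and mutant replicate 1 was above mutant replicate 2.

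**Figure D2:**
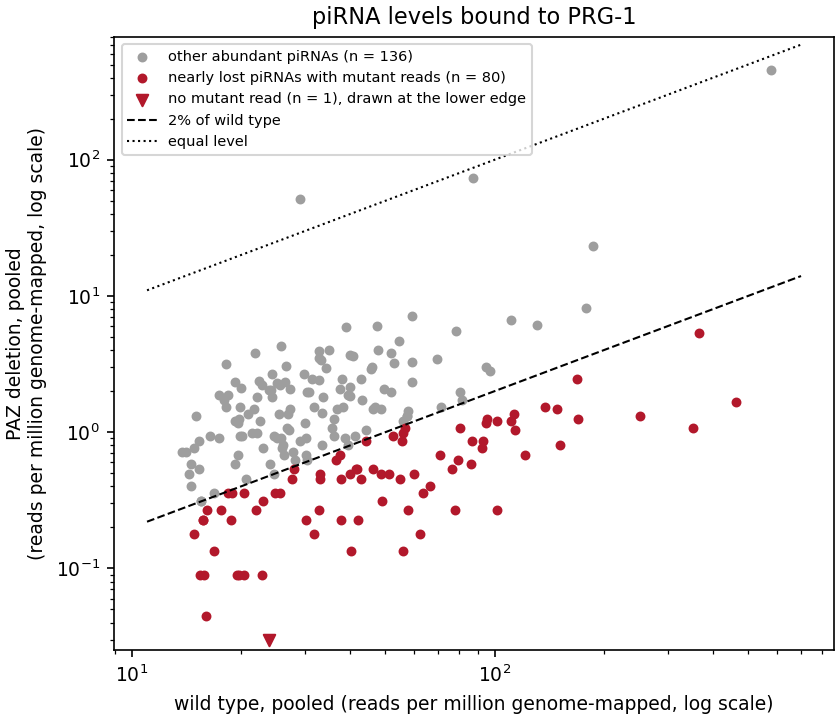
Pooled level in the mutant against pooled level in wild type, both in RPM on log axes, for the 217 piRNAs with at least 100 sense reads in each wild type library. The 81 nearly lost piRNAs (red) lie under the dashed line at 2% of wild type, and cel-piR-10604 is the red point farthest to the right at 462 RPM.

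The steepest losses were spread over a wide range of wild type levels. A single member, cel-piR-4749, had no mutant read at all, against 141 and 214 reads (21.8 and 25.4 RPM) in wild type replicates 1 and 2. With a floor of 3 reads over both mutant libraries, its wild type level was at least 177-fold higher. The exact 95% counting interval used for the other members is wider, reaching 0.698% kept, or 143-fold. With 450 and 381 wild type reads and 2 and 1 mutant reads, cel-piR-7426 kept 0.241% of its level (counting interval 0.0497% to 0.708%). The piRNA cel-piR-5963 had 725 and 787 wild type reads and 3 in each mutant library, which left 0.265% (counting interval 0.0972% to 0.579%).

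Mutant replicate 2 had no read of 2 others among the 6 steepest, cel-piR-8265 and cel-piR-10491. For cel-piR-8265 there were 111 and 127 reads in wild type and 1 in mutant replicate 1, and its counting interval ran from 0.00708% to 1.58%. For cel-piR-10491 there were 545 and 381 reads in wild type and 4 in mutant replicate 1, with an interval of 0.0785% to 0.742%. The sixth was cel-piR-2195, described above with 20 and 4 mutant reads. The intervals of these 6 overlap, so their order was not resolved at this depth. That of cel-piR-8265 also takes in the median kept level of the 81, 0.998%. Which members are the steepest was therefore not resolved either.

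**Figure D3:**
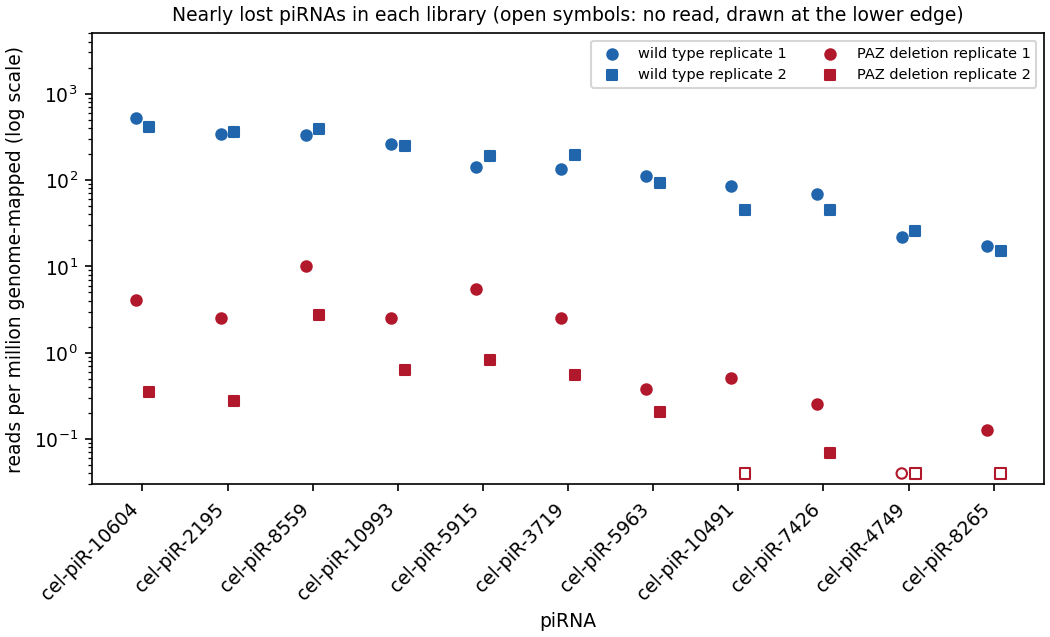
Level in each library, in RPM on a log axis, of the 11 piRNAs that had the highest wild type levels or the lowest kept levels among the 81 (cel-piR-2195 had both). Blue symbols are wild type and red symbols the mutant, circles are replicate 1 and squares replicate 2, and open symbols at the lower edge mark libraries without a read, as for cel-piR-4749 in both mutant libraries.

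Over all 81, the kept level ran from 0% to 1.95% with a median of 0.998%. Of them, 14 kept under 0.5%, 27 kept 0.5% to 1% and 40 kept 1% to 2%. The limit of 2% fell in a continuous range and not in a gap, since another 29 abundant piRNAs kept 2% to 3% and 36 kept 3% to 5%. Over the 136 others the median was 5.17%.

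Just inside the limit were cel-piR-8470, which kept 1.95%, and cel-piR-11773 and cel-piR-2384, which kept 1.93% each. Their mutant reads were 7 and 1, 14 and 5, and 6 and 6 in replicates 1 and 2. Just outside were cel-piR-13051 at 2.01%, with 8 and 3 mutant reads, and cel-piR-11124 and cel-piR-11795 at 2.04% each, with 4 and 3 and with 6 and 1 mutant reads. The counting interval of cel-piR-8470 was 0.834% to 3.90% and that of cel-piR-11124 was 0.809% to 4.26%, so the sides of the limit lie within counting error here.

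At the read minimum, cel-piR-2197 had 119 and 101 wild type reads and cel-piR-2857 had 129 and 100, and both met it. The piRNAs cel-piR-5947 (113 and 99 reads) and cel-piR-4435 (132 and 99 reads) were under 2% as well, at 1.89% and 1.16%, and missed the list by 1 read in wild type replicate 2. Among 219 piRNAs whose lower wild type library held 50 to 99 reads, 48 or 21.9% kept under 2%.

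The depth behind a single mutant level was low. The 81 had 0 to 118 mutant reads over both libraries with a median of 10, and 20 of them had 5 or fewer. A level of 2% would have been 6.58 to 206 mutant reads, depending on the wild type level. The counting interval lay wholly under 2% for 48 of the 81 and reached 2% for the other 33. Conversely, it reached under 2% for 35 of the 136 other abundant piRNAs. The 81 had no pair with the same 4 counts, and none shared its 4 counts with another abundant piRNA.

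**Figure D4:**
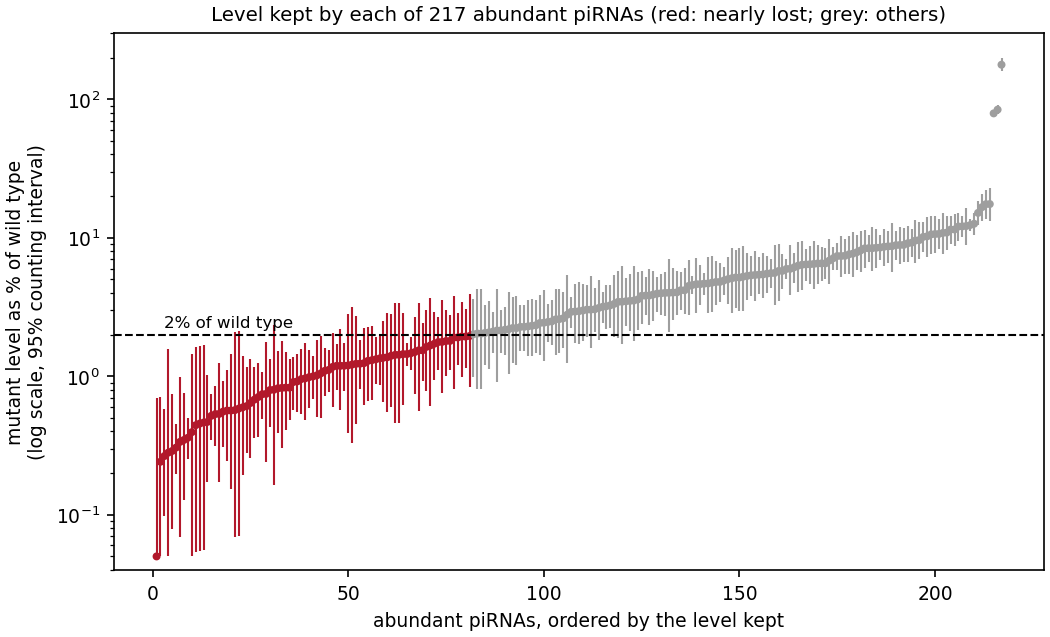
Level kept in the mutant, in percent of the pooled wild type level on a log axis, for each of the 217 abundant piRNAs in order, with 95% counting intervals as vertical lines. Red marks the 81 nearly lost piRNAs and grey the others; values under 0.05% are drawn at 0.05%, and 33 red lines reach the dashed line at 2%.

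The mutant libraries differed from each other in how much of the 81 they held. Mutant replicate 1 had a 4.28-fold higher summed level than mutant replicate 2, while the wild type replicates differed by 1.17-fold. Over all piRNAs but the 81 and cel-piR-8767, the mutant libraries differed by 4.13-fold, so the gap was of similar size outside the 81. With cel-piR-8767 included, all piRNAs but the 81 differed by 2.14-fold. A plus-strand bin of chromosome I from 15000001 to 16000000 (ce11), where 4 ribosomal RNA genes are annotated, took 29.6% of genome-mapped reads in mutant replicate 1 and 61.2% to 67.1% in the other libraries. With that bin left out of the denominator, the mutant libraries differed by 2.36-fold over the 81 and by 2.28-fold over all others but cel-piR-8767, and the kept level of the 81 was 0.626%.

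Of the 81, 76 were higher in mutant replicate 1 than in mutant replicate 2 per genome-mapped read (93.8%), as were 134 of the other 136. Over all piRNAs with a mutant read, rare ones included, the share was 77.0% (2534 of 3291). Against the pooled wild type level, all 81 were under 2% in mutant replicate 2, and 45 of 81 were under 2% in mutant replicate 1. Of all 217 abundant piRNAs, 144 were under 2% in mutant replicate 2 and 45 in mutant replicate 1. The rule that chose the 81 used these same reads, so nothing is read from these counts. In mutant replicate 1 the kept level of the 81 ran up to 4.86% with a median of 1.70%. In mutant replicate 2 it ran up to 1.76% with a median of 0.411%. Mutant replicate 2 had no read for 16 of the 81, and mutant replicate 1 had none for cel-piR-4749 alone. Differences between these libraries have no replicate check, since each is a single library.

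The balance between the mutant libraries varied among single piRNAs. The piRNA cel-piR-7062 had 3 and 7 reads in mutant replicates 1 and 2, or 0.384 and 0.485 RPM, and so was slightly higher in replicate 2. For cel-piR-3274 the reads were 6 and 8, or 0.767 and 0.554 RPM, so its level was still higher in replicate 1. By contrast cel-piR-5276 had 10 and 0 reads, cel-piR-3887 had 11 and 0, and cel-piR-9863 had 12 and 0. Among the 45 members with at least 10 mutant reads, cel-piR-7062 and cel-piR-3274 had the smallest share of their mutant level in replicate 1, and the other 3 tied at the largest.

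**Figure D5:**
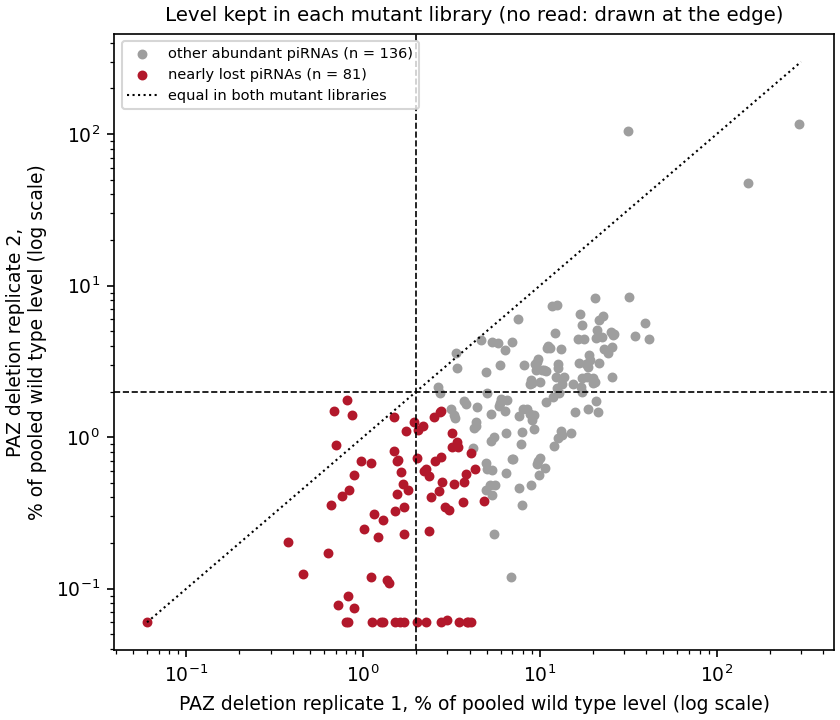
Level kept in mutant replicate 2 against mutant replicate 1, each in percent of the pooled wild type level on log axes, for the 81 nearly lost piRNAs (red) and the 136 others (grey). Most points lie under the dotted line of equality; all 81 red points are under the horizontal dashed line at 2%, and 45 are left of the vertical one.

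The wild type libraries were compared in the same way. Of the 81, 70 were within 2-fold between wild type replicates, as were 110 of the other 136, and 58 of the 81 were higher in replicate 1. Across the 81 piRNAs, levels in the wild type replicates had a Pearson's r of 0.89 on the log2 scale and a Spearman's rho of 0.87, and levels in the mutant replicates a rho of 0.55. These correlations are over piRNAs that share the same libraries, and the read minimum and the 2% limit restrict their range.

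The largest differences between wild type libraries were those of cel-piR-3274, at 128 and 41.6 RPM in replicates 1 and 2, and cel-piR-11571, at 72.4 and 26.0 RPM. In the other direction, cel-piR-4002 had 58.0 and 119 RPM and cel-piR-3887 had 39.8 and 59.9 RPM. Their mutant levels lay between 0 and 1.41 RPM, and the 2% limit keeps the mutant levels of members low.

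To read the loss in libraries that had not chosen it, the same limits were applied to 1 pair of libraries and the kept level was taken from the other pair. Chosen in replicate 1 of each genotype, 65 piRNAs were under 2%, and in replicate 2 these kept 0.438% of their summed level, with 58 of 65 (89.2%) under 2%. The 211 piRNAs that were not under 2% in replicate 1 kept 12.0% in replicate 2 (median 2.34%), and 97 of them (46.0%) were under 2% there. That 12.0% is of a sum that included cel-piR-8767, with 8762 reads in mutant replicate 2, so the median describes the 211 better. Chosen in replicate 2, 160 piRNAs were under 2%, and in replicate 1 they kept 3.24% of their summed level (median 3.06%), with 60 of 160 (37.5%) under 2%. The remaining 98 kept 19.5% (median 12.1%), with 6 of 98 (6.12%) under 2%. Both lists held 51 piRNAs in common, all of them among the 81, which is 78.5% of the first list and 31.9% of the second. That all 51 are among the 81 was nearly fixed in advance, because the 81 were chosen from the same libraries pooled. Each of these readings compares 1 library with 1 library and has no test.

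The kept level was also set against abundance with separate wild type libraries, ranking the 217 abundant piRNAs by wild type replicate 1 and dividing by wild type replicate 2. In 4 groups from 100 to 163, 164 to 252, 254 to 411 and 412 to 5121 reads in wild type replicate 1, the median kept level was 4.20%, 4.60%, 2.92% and 1.49%. The groups held 55, 54, 54 and 54 piRNAs, of which 15, 8, 21 and 30 were under 2% by this division. Members of the 81 numbered 16, 9, 25 and 31, but the rule that chose them used both wild type libraries. The quartiles of neighbouring groups overlapped, with 1.40% to 6.42% in the third group and 0.839% to 5.14% in the fourth.

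In a model fitted to the whole table with genome-mapped reads as library size, all 81 passed the filter on low counts and all 81 were lower in the mutant (edgeR quasi-likelihood test, adjusted p under 0.05), beside 76.9% lower among the 1355 tested piRNAs. The rule used this contrast, so nothing is read from that count. The log2 fold changes of the 81 ran from -10.78 to -5.35 with a median of -6.44, and the median over all tested piRNAs was -4.03. For cel-piR-10604 the log2 fold change was -7.75 ± 1.98 (SE), for cel-piR-8559 it was -5.83 ± 1.76 and for cel-piR-8470, the member nearest to the limit, -5.35 ± 1.61. The value of -10.78 is that of cel-piR-4749, which had no mutant read, and depends on the prior count of the model. No member was called without wild type replicate 1 or without wild type replicate 2 (edgeR), when 30 and 42 of the 81 had an unadjusted p under 0.05 and the median over the 81 was -6.15 and -6.55.

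Scaled within the piRNA pool (edgeR with TMM factors on piRNA reads), all 81 were again lower, beside 15.9% lower among the 1172 tested. Their log2 fold changes there ran from -9.66 to -2.01 with a median of -3.05, against a median of -0.32 over all tested. This fit uses the reads that chose the 81 as well, and it too is given as a description.

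The rule did not use antisense reads, which few piRNAs had. Such reads were found for 2.22% of the whole table, 2.21% of the other 136 abundant piRNAs and 1.23% of the 81. Among them, cel-piR-3741 alone had any, with 0 in each wild type library and 4 and 0 in mutant replicates 1 and 2, beside 583 and 468 wild type sense reads and 9 and 6 mutant sense reads. The summed antisense level of the 81 was 0 in both wild type libraries and 0.512 and 0 RPM in mutant replicates 1 and 2. The groups overlapped at 0, and a two-sided exact permutation test gave p = 1.00. That value was fixed in advance, because with reads in 1 library alone all 6 arrangements give a difference of the same size. The test therefore cannot decide whether the groups differ. Where no read was counted, up to 3 reads are allowed, or 0.208 to 0.464 RPM depending on the library. Of the other 136 abundant piRNAs, 3 had antisense reads, with 1 and 2 in the wild type libraries and 22 and 3 in the mutant ones. The exact permutation test on these gave p = 0.667, where 0.33 is the smallest that 2 against 2 libraries allow. Over the whole table, 354 piRNAs (2.22%) had an antisense read, and 7 passed the filter of the edgeR test on antisense counts, none of them among the 81. Of those 7, 57.1% were lower in the mutant.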

How the data were processed

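Small RNAs co-precipitated with V5-tagged PRG-1 were sequenced in 2 wild type and 2 prg-1(∆PAZ-domain) libraries. Groups and replicate numbers came from the sample titles. The authors deposited raw counts of sense and antisense reads per piRNA of piRNAdb (version 1.7.6) and per 1 Mb bin and strand of ce11, per the file headers. Another table deposited by the authors gave library totals, of which the genome-mapped reads were used. The handling of multi-mapping reads, the aligner and the trimming are not stated by any source used here, so piRNAs that share sequence are uncertain.

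The 81 piRNAs, the comparison sets and the tests were chosen with earlier results of these data known. Total rows were dropped. Ratios used reads pooled by genotype, and 95% intervals were exact binomial. The models were edgeR 4.0.16 (R 4.3.3) with filterByExpr defaults (minimum count 10, minimum total 15), Benjamini-Hochberg adjustment and a threshold of 0.05, and DESeq2 1.42.0 as an alternative. The edgeR fits of sense and antisense counts with genome-mapped library size were tested on simulated data, and the fits with TMM factors were not. The SE is the absolute log2 fold change divided by the square root of F. The antisense permutation test used log2(RPM + 0.01) over 6 arrangements. Named piRNAs were those ranked first or last among the 81 by wild type level, kept level, wild type reads, replicate balance (members with at least 10 mutant reads) or antisense reads, plus neighbours of both limits. The other steps used pandas 2.3.3 with NumPy 2.4.6 under Python 3.11.15, with intervals from SciPy 1.17.1 and plots from matplotlib 3.10.9. Alternatives changed the limits, scaling, filter, tool, replicate block and libraries used.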

Additional observations from a re-analysis of the deposited data

How the results depend on the processing

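The number of piRNAs that met the rule depended on its limits and on the mutant libraries. It was 129 with a minimum of 50 reads, 53 with 200, 41 with a ratio under 0.01 and 146 under 0.05. Scaled to piRNA reads it was 1, and the summed level of the 81 was then 10.2% of wild type. That scaling divides by the sense reads of all piRNAs, which themselves kept 8.88% of their pooled level per genome-mapped read. From replicate 2 of each genotype alone the number was 160. Leaving out 1 library gave 45 to 144, with 45 without mutant replicate 2 and 144 without mutant replicate 1. The kept level ranged from 0.419% to 1.80% without single libraries. Members lower by edgeR numbered 0 to 81 when 1 library was left out, with 0 without either wild type library. DESeq2 with median-of-ratios size factors called 70 of the 81 lower, and 94 of the 961 it tested. The labels give no pairing of the replicate numbers, and the correlation of replicate differences between genotypes was 0.10. With the replicate block, 81 of 81 members and 782 of 1355 tested piRNAs were lower, and 1 was called by antisense reads, against 4 without it. Antisense reads gave 2 calls with TMM factors and 0 to 4 without single libraries. The antisense difference of the 81 ranged from 0 to 0.512 RPM without single libraries, with 0 without mutant replicate 1. The share of members higher in mutant replicate 1 was 74.1% scaled to piRNA reads and 50.6% with cel-piR-8767 also left out of that total, an alternative added after seeing the data. The cause of these shifts was not tested. Depth limits single mutant levels, which rested on a median of 10 reads.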
